A study of Paxillus involutus and Laccaria bicolor with 24 samples.

Results

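The transcriptome of the ectomycorrhizal fungus *P. involutus* was compared between ammonium depletion (t2, day 5) and active growth (t1, day 2). Members of the comparison were all gene models whose counts averaged 11 or more across the 12 libraries of this fungus, which were 12032 of 17968. The whole series holds 41098 gene models from 2 fungi, *P. involutus* and *Laccaria bicolor*, each sampled at 4 time points with 3 biological replicates. Both groups compared here were mycelium of strain ATCC 200175, first grown on glass beads in Melin-Norkrans medium, then kept for a day without nitrogen and then given a hot-water extract of spruce forest soil with added glucose. They therefore share the nitrogen deprivation and the extract. At t1 ammonium and glucose were both in the medium, and at t2 ammonium was used up while glucose remained. Time and nutrient state change together in this design, so that 3 more days of culture and the loss of ammonium cannot be told apart. The question was which genes respond when the fungus runs out of ammonium in the presence of a carbon source.

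An ectomycorrhizal fungus receives sugar from tree roots and delivers nitrogen in return. In fungi studied in culture, ammonium is a preferred nitrogen source, and its exhaustion is followed by a switch to other nitrogen sources, with less synthesis of ribosomes and proteins. The gene models analysed here carry prediction names only, and no table used here pairs those names with a function, so that the results are given by size, read abundance and course, and no role is given to a single gene.

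The 3 libraries of t1 held 10466363 to 13595446 counted reads and the 3 of t2 held 9843577 to 11150409. At least 99.946% of the reads of each of these 6 libraries fell on tested gene models. Distances between libraries, computed on log2 CPM (counts scaled to a common library total after TMM normalization) of all tested gene models, were 25.7 to 28.1 within t1, 24.5 to 24.7 within t2 and 47 to 51.9 between t1 and t2. No library of either group was thus nearer to the other group than to its own. The median SD of log2 CPM over 3 libraries was 0.107 at t1 and 0.0888 at t2. Counts of replicate libraries varied more than sampling alone would give, with a chi-square per degree of freedom of 2.11 to 8.09 at t1 and 2.74 to 3.31 at t2. The 2 highest values at t1 were those of pairs with replicate 3. This was also the deepest library, and a part of depth in these values was not tested.

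At a false discovery rate of 1% (edgeR quasi-likelihood test, Benjamini-Hochberg adjustment over all tested gene models), 3861 gene models changed, 32.1% of those tested, and 8171 (67.9%) were not called. Of the 3861, 1691 (14.1% of those tested) rose and 2170 (18%) fell. With scaling by total counts in place of TMM, the same test gave 3482 up and 1173 down. At an unadjusted p under 0.05 there were 6141 gene models (51%). All values are relative abundances in bulk mycelium, in which fewer cells of a kind and less RNA per cell cannot be told apart. Most changes were small. The median log2 fold change was 0.45 among the risers and -0.46 among the fallers, and 2665 of the 3861 changed less than 1.5-fold. At least 2-fold changes were found for 118 gene models that rose (0.981%) and 232 that fell (1.93%). This order turned with scaling by total counts, which gave 229 up and 168 down. More than 4-fold changes were found for 7 that rose and 21 that fell. No tested gene model was without reads in all 3 libraries of t1 or of t2, so that no switch from or to zero was found among them.

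**Figure D1:**
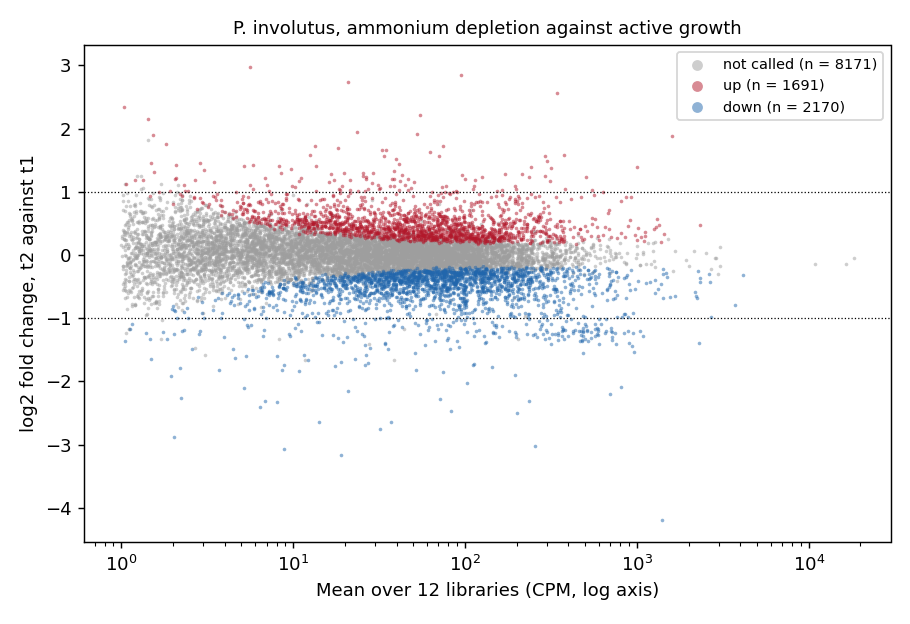
Log2 fold change at t2 against t1 for the 12032 tested gene models, plotted against their mean CPM over 12 libraries (log axis). Red points rose (1691), blue points fell (2170), grey points were not called, and dotted lines mark a 2-fold change. A dense group of abundant gene models lies just below the lower dotted line.

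The 3 libraries of t2 lay all above the 3 of t1 for 3158 gene models (26.2%) and all below for 3293 (27.4%). Of the 3861 called gene models, 18 had overlapping libraries. A further 2608 had separate libraries but were not called. The median standard error of the log2 fold change was 0.0894 over all tested gene models, and the smallest log2 change called was 0.17. With 3 libraries against 3, an exact permutation test of a single gene cannot give a two-sided p below 0.1, and the calls rest on the model across all gene models.

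The changes were unequally spread over read abundance. Tested gene models were divided into quintiles by their mean CPM over all 12 libraries. CPM is not divided by gene length, so that these are classes of read number and not of transcript level. In the lowest quintile (0.994 to 6.65 CPM) 99 gene models rose and 81 fell. In the highest quintile (103 to 18300 CPM) 459 rose (19.1%) and 781 fell (32.4%). Precision rose along with the share of calls, the median standard error being 0.222 in the lowest and 0.064 in the highest quintile, and its part in the gradient was not tested. The direction also shifted. The median log2 fold change was 0.07, 0.06, -0.01, -0.02 and -0.07 from the lowest to the highest quintile. Scaling by total counts in place of TMM, which was added once the data had been seen, made all 5 medians positive, from 0.24 in the lowest to 0.09 in the highest quintile.

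**Figure D2:**
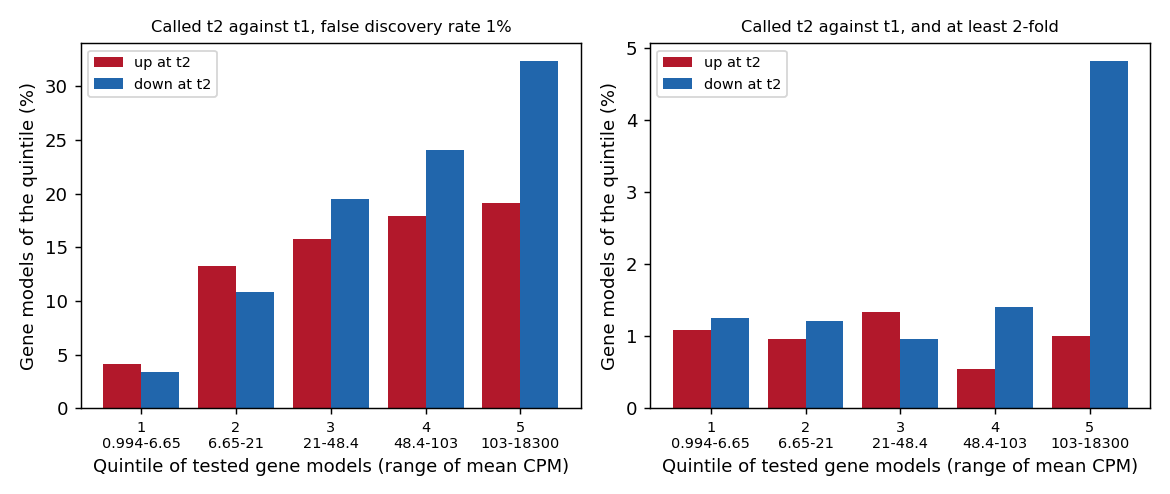
Share of gene models (%) that rose (red) or fell (blue) at t2 in each quintile of mean CPM, at a false discovery rate of 1% (left) and with at least a 2-fold change as well (right). In the highest quintile 4.82% fell at least 2-fold and 0.997% rose, while the other quintiles lie between 0.540 and 1.41% in both directions.

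Large falls were concentrated among abundant gene models. In the highest quintile 116 gene models fell at least 2-fold (4.82%) and 24 rose (0.997%). In the other 4 quintiles together 116 fell and 94 rose. The 116 abundant fallers fell by similar amounts. Their quartiles were -1.32 and -1.18 around a median log2 fold change of -1.23. The interquartile range was 0.14, against 0.52 for the 116 less abundant fallers, whose changes are measured less precisely. The cut at a 2-fold fall bounds both ranges on 1 side. Of the 116 abundant fallers, 104 fell by a log2 change under 1.5. These 116 were singled out after their values were seen, and their changes are therefore described and not tested as a group.

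The median CPM of the 116 abundant fallers was 736, 714 and 745 in the 3 libraries of t1, and 308, 326 and 299 in those of t2. Each t2 median was thus below 50% of each t1 median, which their selection as 2-fold fallers on these libraries favours. Together these gene models held 9.00% ± 0.222 (SD, n = 3) of all counted reads at t1 and 3.96% ± 0.176 (n = 3) at t2. Their share fell by 5.049 percentage points, as the selection of abundant fallers on these libraries requires. This loss was 42.2% of all the share that any gene model lost. Their median was lower again at the later time points. Relative to t1, the median log2 CPM was -1.47 to -1.39 in the libraries of t3 and -1.76 to -1.69 in those of t4. Between t3 and t4, a change that shares no library with that at t2, 79 of the 116 fell again and 10 rose, against 13.3% and 11.8% of all tested gene models. These sets were not matched for read number. Abundant gene models are measured more precisely, with a median standard error at t2 of 0.064 in the highest and 0.222 in the lowest quintile. The interquartile range of the t4 against t3 change was 0.22 over the 116 and 0.95 over the less abundant fallers, whose changes are also measured less precisely. Of the 116, 66 (56.9%) have names of the fgenesh1_kg class, which end in the name of a source sequence, against 47.7% of the whole highest quintile. The 106 whose names hold a scaffold number came from 43 scaffolds, with at most 15 on one. With the factors deposited by the authors in place of TMM, the same 116 had a median log2 fold change of -0.91, with quartiles of -1.47 and -0.58, a wider range, and 103 fell, 54 of them at least 2-fold.

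By the mirror image of the rule the study applied to upregulated genes, 140 gene models were among the top 20% by mean CPM at t1 (at least 106.5 CPM) and fell at least 2-fold. They made up 60.3% of all 2-fold fallers. They held 9.10 to 9.54% of counted reads in the libraries of t1 and 3.93 to 4.29% in those of t2. The 29 gene models that rose at least 2-fold and were among the top 20% at t2 went from 0.402 to 0.416% of reads up to 1.23 to 1.30%. The read shares of the 2 groups did not overlap between t1 and t2, as their selection on these libraries requires. The study, with its own normalization, reported more upregulated gene models by its rule than the 29 found here, which were counted with or without annotation. Its rule was not applied here with the factors deposited by the authors. The highest quintile by mean CPM over 12 libraries is another class. In it 24 gene models rose at least 2-fold with TMM and 54 with those factors. The corresponding numbers of fallers were 116 and 137.

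The reads were spread more evenly over gene models in every t2 library than in any t1 library. The effective number of gene models, the exponential of the Shannon entropy of read shares, is the number of equally abundant gene models that would give the same evenness. It was 3389, 3435 and 3383 in the libraries of t1 and 3823, 3781 and 3842 in those of t2, an increase of 12.1% with no overlap. With 3 libraries in each group, this gives the smallest p an exact two-sided permutation test allows, 0.1. The 100 most abundant gene models of each library held 22.3% ± 0.235 (SD, n = 3) of reads at t1 and 20.6% ± 0.134 (n = 3) at t2, also without overlap (exact permutation test, p = 0.1). The 10 most abundant held 7.69 to 8.12% and 7.54 to 7.72%, which overlap (exact permutation test, p = 0.2). In *L. bicolor* the effective number was 2535 ± 13.2 at t1 and 2430 ± 43.6 at t2 (n = 3 each), named for the same nutrient states. The difference between the species in the t2 against t1 change was 517.9 gene models (exact permutation of time labels within each species, 400 relabellings, p = 0.005, adjusted p = 0.005 over 2 measures). This permutation assumes no change with time in either species, so that its p does not test whether the 2 changes are equal. Ammonium depletion was reached on day 13 in *L. bicolor*, so that species and culture time cannot be told apart in it.

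In all, 11.97 percentage points of the reads lay on other gene models at t2 than at t1. The loss lay on fewer gene models than the gain. Of all lost share, 50% lay on 102 gene models, whereas 50% of all gained share lay on 466. Read shares have a fixed sum in each library, so that losses of abundant gene models raise the shares of unchanged ones. By share 9251 gene models gained and 4346 lost, and how far the fixed sum made this contrast was not tested. The 10 largest losers made 13.1% of the loss and the 10 largest gainers 8.28% of the gain. Gene models that rose held 11.7 to 11.9% of reads at t1 and 18.2 to 18.8% at t2. Those that fell held 41.4 to 41.9% and 29.5 to 30.4%. Their selection on these same libraries favours both shifts. TMM factors lay between 0.883 and 0.895 in t1 libraries and between 0.991 and 1.003 in t2 libraries. Scaling by total counts therefore raised the median log2 fold change over all tested gene models from 0.00 to 0.17.

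The largest fall was that of gm1.13900_g. Its counts were 47510, 38085 and 63668 in the libraries of t1 and 2340, 2798 and 2754 in those of t2. In CPM these were 4604, 4081 and 5234 against 238.2, 278.6 and 246.5, so that every t2 library was far below every t1 library. The mean was 4640 ± 577 CPM at t1 and 254.4 ± 21.3 at t2 (SD, n = 3 each). This was an 18.2-fold fall, or -4.19 ± 0.11 (standard error) on the log2 scale (edgeR, adjusted p = 3.36e-14). By CPM it ranked 6 among all gene models at t1 and 704 at t2. It alone held 0.413% of counted reads at t1 and 0.0254% at t2. It remained low later, with 387.2 ± 37.7 CPM at t3 and 292.7 ± 28.7 at t4 (n = 3 each).

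The largest loss of CPM apart from this one was that of fgenesh1_kg.10_#_212_#_isotig00538. It had 5933, 5976 and 5237 CPM at t1 and 3434, 3308 and 3130 at t2. The libraries did not overlap, but the log2 fold change was only -0.80 ± 0.066 (standard error, edgeR, adjusted p = 2.59e-08). Its rank among all gene models was 5 at t1 and 6 at t2. It had 3151 ± 36.5 CPM at t3 and 2725 ± 165 at t4 (n = 3 each). This later difference did not pass the threshold (edgeR, log2 change -0.21, adjusted p = 0.0174).

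The largest gain of CPM was that of fgenesh1_pg.2_#_74. Its counts were 9435, 7842 and 10710 at t1 and 32411, 32581 and 35099 at t2. In CPM these were 914.4, 840.3 and 880.5 against 3300, 3244 and 3142, with little spread within each group and a wide gap between them. It rose 3.68-fold, or 1.88 ± 0.075 (standard error) on the log2 scale (edgeR, adjusted p = 3.8e-12), and its rank by CPM went from 155 to 8. The level was not kept. It was 1857 ± 123 CPM at t3 and 414.4 ± 45.6 at t4 (n = 3 each), below that of t1. The log2 change from t3 to t4 was -2.16 (edgeR, adjusted p = 1.1e-12). The change at t2 exceeded it by 4.04 ± 0.11 (standard error, edgeR, adjusted p = 2.45e-14). With the deposited factors for length, G/C content and depth, its log2 fold change at t2 was 0.23 and was not called (adjusted p = 0.602, edgeR).

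The deposited factors, by which the counts are divided, moved with the counts of this gene model. They were 0.409, 0.964 and 1.28 in the libraries of t1 and 2.38, 1.70 and 2.61 in those of t2, a 2.76-fold higher geometric mean at t2. The deposited rlog values (regularized log2 of counts divided by these factors) were 13.92 ± 0.52 at t1 and 14.14 ± 0.18 at t2 (SD, n = 3 each). For gm1.13900_g the factor moved with the count as well, from 2.71, 1.68 and 3.68 at t1 to 0.523, 0.607 and 0.679 at t2, and its log2 fold change with the factors was -2.13 ± 0.12 (standard error, edgeR, adjusted p = 2.95e-08). For the 2 other gene models named here the ratio of factors at t2 to t1 was 0.934 and 0.871. Over the 100 most abundant tested gene models, the log2 ratio of factors (t2 against t1) and the log2 fold change with TMM had a Pearson's r of 0.55 across gene models, which are not independent replicates and share the libraries. From the lowest to the highest quintile r was -0.1, 0.6, 0.51, 0.03 and 0.05, so that both quintiles above the lowest had values like that of the 100. Among these 100, 65 were called with TMM and 52 with the factors, of which 35 were called in the same direction by both. Of the 65, 14 had a log2 fold change of the opposite sign with the factors. Why the factors moved with the counts was not tested.

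The largest log2 rise was that of fgenesh1_pg.38_#_21, a gene model of low read number. It had 15, 19 and 15 counts at t1 and 120, 116 and 142 at t2. All t2 libraries lay above all t1 libraries. In CPM the means were 1.57 ± 0.415 and 12.2 ± 0.582 (SD, n = 3 each), and the log2 rise was 2.97 ± 0.17 (standard error, edgeR, adjusted p = 1.67e-10). It came back to 4.64 ± 0.401 CPM at t3 and 3.91 ± 0.499 at t4 (n = 3 each). These 4 gene models kept their direction under each alternative run, and only fgenesh1_pg.2_#_74 lost its call, and only with the deposited factors, in edgeR and in DESeq2 alike.

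**Figure D3:**
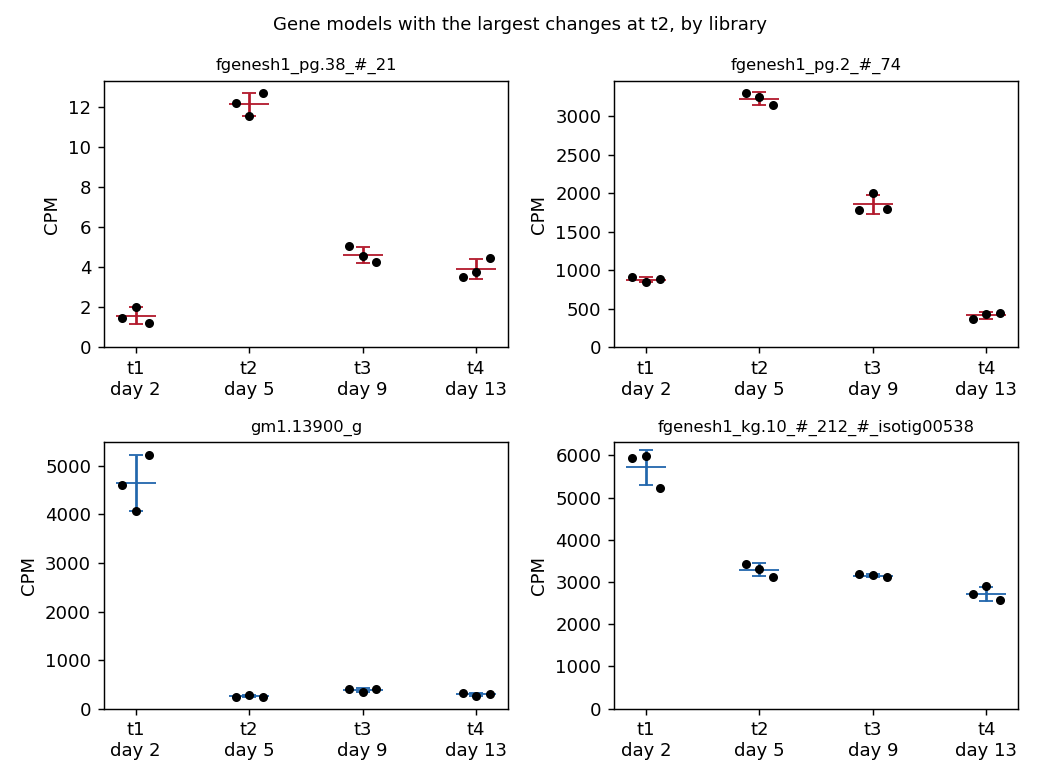
CPM of the 4 named gene models in each of the 12 libraries (points) at t1 to t4, with the mean and SD of 3 libraries (horizontal marks and bars). The upper gene models rose and the lower ones fell at t2, and the libraries of both time points are separate in all 4.

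Among the 20 largest risers with separate libraries, log2 fold changes ranged from 1.57 to 2.97, and 6 had fewer than 10 CPM at both time points. Among the 20 largest fallers they ranged from -4.19 to -2.08, and 3 were under 10 CPM at both. The median CPM of the 20 largest risers was 7 before depletion, then 29 (t2), 32.2 (t3) and 14 (t4). That of the 20 largest fallers was 47.2, 9.1, 9.84 and 9 in the same order. The fallers thus stayed low as a group. In 19 of these 20 the mean at t4 was below that at t1, and in 1 it was above.

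The 118 gene models that rose at least 2-fold had a median CPM of 14.1 before depletion, then 35.4 (t2), 32.4 (t3) and 21.4 (t4). Relative to t1 the median log2 CPM was 1.19, 1.08 and 0.67 at t2, t3 and t4, and the quartiles widened from 1.05 and 1.39 at t2 to -0.30 and 1.25 at t4. The cut at a 2-fold rise at t2 limits the spread there. The quartiles of all tested gene models widened as well, from -0.23 and 0.23 at t2 to -0.43 and 0.47 at t4. Of the 118, 64 (54.2%) had their highest mean at t2, 36 (30.5%) at t3 and 18 (15.3%) at t4. Of all tested gene models, these shares were 19.1, 14.8 and 34.9%. The lowest mean was at t4 in 42 (35.6%), near the 34.1% of all tested gene models. The selection on t1 and t2 favours t2 as the highest and t1 as the lowest time point. Of the 232 gene models that fell at least 2-fold, 215 (92.7%) had their highest mean at t1 and 138 (59.5%) their lowest at t4. Of all tested gene models, these shares were 31.2 and 34.1%. The selection of fallers favours t1 as the highest time point and excludes it as the lowest.

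**Figure D4:**
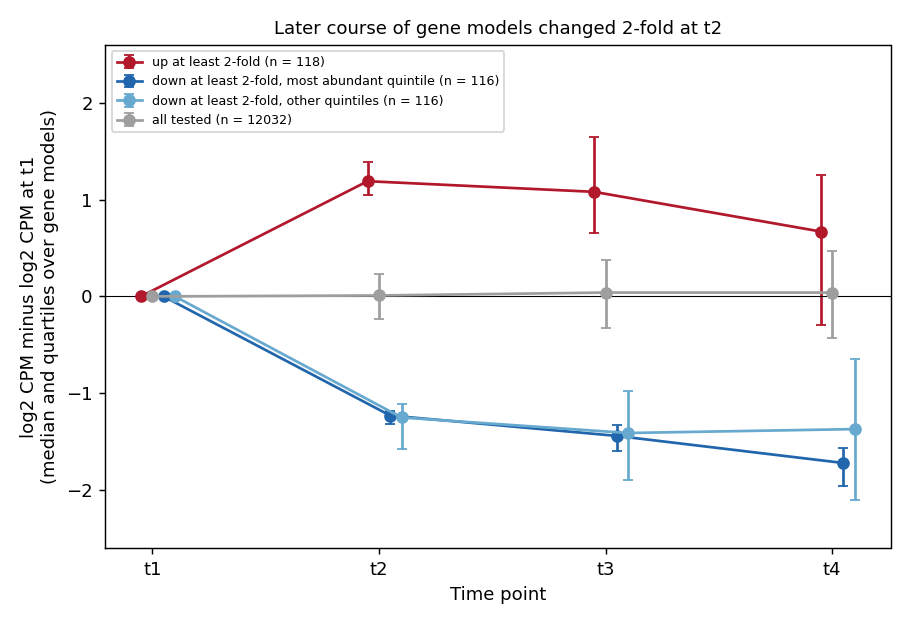
Median (points) and quartiles (bars) of log2 CPM relative to t1 over the gene models that rose at least 2-fold at t2 (red, n = 118), those that fell at least 2-fold in the highest quintile of CPM (dark blue, n = 116) and in the other quintiles (light blue, n = 116), and all tested gene models (grey). The quartiles of all 3 sets lie wider apart at t4 than at t2, at -1.96 and -1.56 in the dark blue set and at -2.1 and -0.65 in the light blue set. Those of all tested gene models do so too, and the 2-fold cut limits the spread of the 3 sets at t2.

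The change at t2 was set against that from t3 to t4, which shares no library with it and was tested in the same model. The 2 changes differed for 3291 gene models (27.4%, edgeR quasi-likelihood test of the difference, false discovery rate 1%). The change at t2 was the higher one for 1588 (13.2%) and the lower one for 1703 (14.2%). Across all gene models the 2 log2 changes had a Pearson's r of -0.085 and a Spearman's rho of 0.012. Of the 1691 risers at t2, 337 (19.9%) fell from t3 to t4 and 174 (10.3%) rose, against 13.3% and 11.8% of all tested gene models. Of the 2170 fallers, 569 (26.2%) fell again and 359 (16.5%) rose. The 569 were 35.6% of all gene models that fell from t3 to t4, and the 359 were 25.3% of all that rose. Of the gene models not called at t2, 8.48% fell from t3 to t4 and 10.9% rose. The share of risers that rose again was near that of all tested gene models, and the differences between these shares were not tested. Of the 118 that rose at least 2-fold, 67 (56.8%) fell from t3 to t4 and 10 (8.47%) rose. Of the 232 that fell at least 2-fold, 99 (42.7%) fell again and 46 (19.8%) rose.

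**Figure D5:**
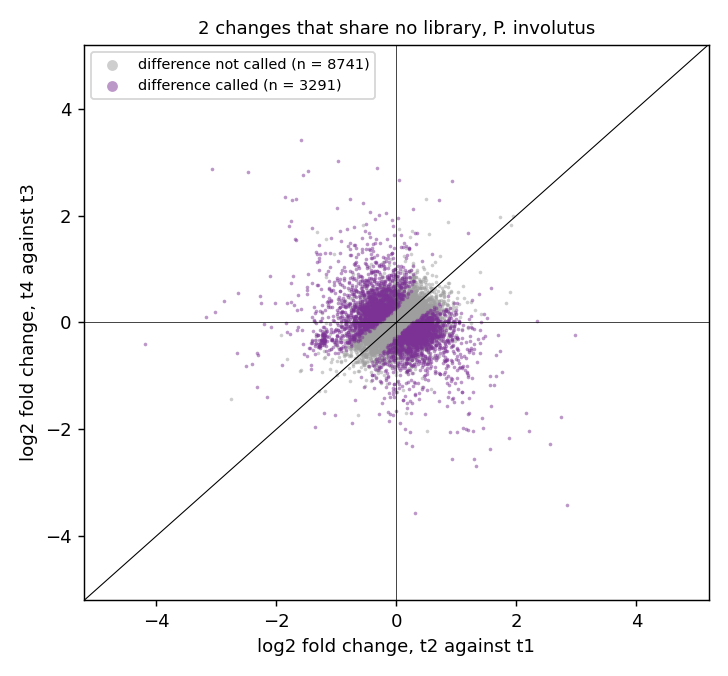
Log2 fold change from t3 to t4 against that from t1 to t2 for each tested gene model of *P. involutus*. Purple points differ between the 2 changes (n = 3291), grey points do not pass the test, and the diagonal marks equal changes. The points show no common slope, and many large risers at t2 lie in the lower right quadrant.

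The excess of 2-fold falls over 2-fold rises at t2 was found with TMM (118 up, 232 down) and turned to 229 up and 168 down with scaling by total counts. The other steps of the time course are given with TMM only. From t2 to t3, 324 gene models rose at least 2-fold (2.69%) and 172 fell (1.43%), and from t3 to t4 these were 167 (1.39%) and 134 (1.11%). In *L. bicolor*, 575 rose at least 2-fold at t2 (4.01%) and 249 fell (1.73%). The steps at t2 and t3 share the t2 libraries, and the differences between these counts were not tested.

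The names of 9926 tested gene models hold a scaffold number, if read by the usual form of such names, which the files do not state. On the 35 scaffolds with at least 50 of them, the share that rose at t2 ranged from 8.64 to 33.9% (median 15.7%) and the share that fell from 3.23 to 28.0% (median 18.9%). Both extremes of 33.9 and 3.23% belonged to scaffold 24, which was singled out after its values were seen. Of its 62 tested gene models, 21 rose and 2 fell, and 47 had a positive log2 fold change. Their median log2 fold change was 0.27, against at most 0.12 on the other 34 scaffolds. The quartiles of the 62 were 0.01 and 0.49, so that many small changes made up the shift. Read number was low, with a median of 11.3 CPM. In the quintile of 6.65 to 21 CPM, 13.3% of gene models rose, 10.8% fell and the median log2 fold change was 0.06. Scaffolds were not matched for read number. The median log2 CPM of the 62, relative to each gene model's mean over t1 and t2, was -0.144, -0.182 and -0.043 in the libraries of t1 and 0.158, 0.114 and 0.102 in those of t2. It was 0.332 to 0.366 at t3 and 0.302 to 0.376 at t4, while the median over all tested gene models stayed within 0.032 of zero in every library. With the deposited factors the median log2 fold change of the 62 was 0.23, with 10 up and 1 down.

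By the kind of prediction name, the share that fell was between 10.2% (gw, 48 of 471) and 26.4% (fgenesh1_pm, 136 of 516), and the share that rose between 6.79% (gw) and 17.4% (fgenesh1_kg, 478 of 2741). These classes differ in read number. Within the highest quintile, 34.0% of fgenesh1_kg models fell and 31.0% of all others, against 25.2% of this class over all quintiles. Of the fgenesh1_kg models, 173 share the source sequence in their name with another tested model, in 82 groups. All members fell in 7 groups and all rose in 4, and 1 group held both a riser and a faller. Counts of such models are uncertain where their sequences are nearly identical.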

How the data were processed

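RNA-seq reads of *P. involutus* mycelium (single reads of 50 bases) were aligned to the filtered gene models (ver. 1.0) with TopHat2 (2.0.13) and Bowtie2 (2.2.3.0), and the authors deposited whole-number counts per gene model from HTSeq (0.6.1, stranded, coding sequence only). The authors also deposited normalization factors from EDASeq and DESeq2 (1.14.1), a ratio per gene model and library by which counts are divided, and regularized log2 values made from them; both served only as alternatives or descriptions.

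Counts were analysed with edgeR (4.0.16, R 4.3.3): TMM scaling, 1 mean per time point over all 12 libraries of the species, the quasi-likelihood F test, Benjamini-Hochberg adjustment over 12032 gene models and a threshold of 1%. The change at t2 was compared with that from t3 to t4 by a contrast in the same model. On simulated counts for this comparison (12032 gene models), 76.1% of 1.5-fold, 92.5% of 2-fold and 100% of 4-fold changes were recovered, with 2 false calls. Only 67, 67 and 66 gene models were changed by these folds, in random directions, whereas 32.1% were called in the data. The simulation therefore does not give recovery or false calls where many gene models change, and it does not test the scaling. DESeq2 (1.42.0), its size factors, the deposited factors, no filter, another threshold, fewer libraries and a replicate block were tried.

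The labels call the libraries biological replicates. Replicate numbers did not pair t1 with t2 (correlations of deviations -0.072 to -0.01). The members and lists were chosen with earlier results of these data known. The rule for named gene models took the largest log2 change and the largest change in CPM in each direction, up to 2 each, since names could not be paired with functions. Columns of the whole-series tables for *L. bicolor* were used only for read evenness and counts of calls.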

Additional observations from a re-analysis of the deposited data

Results flagged for a closer look

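The change in read evenness at t2 differed between the species. In *P. involutus* the effective number of gene models was 3403 ± 28.2 at t1 and 3815 ± 30.8 at t2 (SD, n = 3 each), and in *L. bicolor* it was 2535 ± 13.2 and 2430 ± 43.6 (n = 3 each), with separate libraries in both. The difference of the changes was 517.9 (exact permutation of time labels within species, 400 relabellings, p = 0.005, adjusted p = 0.005). The p refers to no change with time in either species and not to equal changes in both.

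The share of reads on the 100 most abundant gene models went the other way. It decreased by 1.78 percentage points in *P. involutus*, from 22.3 to 20.6%, and increased by 2.77 in *L. bicolor*, from 30.1 to 32.9%. The difference of the changes was -4.544 percentage points (the same exact permutation test, p = 0.005, adjusted p = 0.005). These p-values are the smallest that the relabellings can give, and they do not test whether the changes of the 2 species are equal. The species were sampled on different days at t2 and carry different gene sets, and the causes were not tested.

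Outside the tested set, 5936 gene models had a mean count under 11. Of these, 4371 had no read in the 6 libraries of t1 and t2. Only 1 had no read at t1 and at least 10 at t2, where it had 10 in all, and 0 had the reverse pattern.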

How the results depend on the processing

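Scaling by total counts, added once the data had been seen, gave 3482 gene models up and 1173 down, with 229 up and 168 down at least 2-fold, so that large rises then outnumbered large falls, and the up share of all calls went from 43.8 to 74.8%. The log2 fold change of fgenesh1_pg.2_#_74 was 0.23 with the deposited factors, in edgeR and DESeq2 alike. With these factors 1256 gene models rose and 1813 fell. Of the main calls, 60.9% of the risers and 70% of the fallers were shared, but only 55.1 and 56.9% of those past 2-fold. The other 208 planned and 16 added values from alternatives kept their direction and side of the threshold, or their count within 1.5 times.

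With 1 library left out, the numbers were 1310 to 1829 up, 1722 to 2221 down, 109 to 134 up and 223 to 250 down at least 2-fold, 131 to 156 abundant and down at least 2-fold, and 2829 to 3317 with different changes at t2 and t4. The highest numbers at least 2-fold, 134 up and 250 down, were those without t1 replicate 3. With 1 library of t1 or t2 left out, the effective number of gene models increased by 399.7 to 429.8. With a replicate block these numbers were 1613, 2103, 119, 234, 140 and 3155. Replicate numbers are shared by label only, with correlations of deviations of -0.01, -0.072 and -0.035.

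Precision is limited at low read number, where the median standard error was 0.222 in the lowest quintile against 0.064 in the highest. With 3 libraries a group, an exact test of one value cannot go below p = 0.1.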

Other observations

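With TMM, 21 of the 100 most abundant tested gene models rose at t2 and 44 fell. Of these 65, 14 had a log2 fold change of the opposite sign with the deposited factors. Among the next 900, 167 rose and 350 fell. The median log2 fold change was -0.17 and -0.10 in these classes and 0.01 over the other 11032. In the highest quintile, 105 gene models had a log2 fold change between -1.5 and -1 and 20 one between 1 and 1.5.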
